A study of Homo sapiens with 4 samples.

Results

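The TSC-RHEB axis and the effectors of mTOR complex 1 (mTORC1) were described here at 10 genes, chosen by name: the upstream regulators TSC1, TSC2 and RHEB, the translation effectors EIF4EBP1, EIF4EBP2, RPS6KB1, RPS6KB2 and LARP1, and the autophagy effectors ULK1 and TFEB. The deposited peak table names 1 of the 10 as nearest gene for 20 of its 68937 peaks. The peaks come from chromatin immunoprecipitation of PML, the scaffold protein of PML nuclear bodies, in MDA-MB-231 cells, a human cell line from triple-negative breast cancer that was grown in DMEM with serum and penicillin-streptomycin. There were 2 PML ChIP libraries, made with a PML antibody, and 2 input libraries of the same line, whose labels name no antibody, and no treatment is named for either. The series concerns a nuclear complex of PML, the kinase mTOR and the promoter-binding protein RONIN. It holds 1 cell line, no second condition and no expression values, and the authors merged the duplicates. No value below therefore has a replicate error, the input level at a peak cannot be seen, and differences between genes are given as values without a test.

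TSC1 and TSC2 form a complex that keeps the small GTPase RHEB in its inactive form. When the complex is inhibited by growth factor signalling, RHEB activates mTORC1 at the lysosome. Active mTORC1 phosphorylates the 4E-BP proteins, which then release the cap-binding factor EIF4E, and the S6 kinases, which promote translation. It acts on LARP1, which binds the mRNAs of ribosomal proteins, and restrains autophagy through the kinase ULK1 and the transcription factor TFEB.

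PML peaks lay at the promoters of all 3 upstream regulators and of 5 of the 7 effectors. A promoter peak is here a peak named for the gene and centred within 1000 bp of a transcription start site (TSS). The count of 8 of 10 is close to the share among all protein-coding genes that the table names, of which 78.6% had a promoter peak (10958 of 13948, exact Clopper-Pearson 95% interval 77.9 to 79.2%, counting error only). RPS6KB2 and ULK1 had none. The peak score is the authors' whole number for each peak, on a scale that the table does not state, and it runs from 13 upwards with a median of 34. The highest promoter score was 147 at RHEB, 122 at TFEB, 115 at TSC1, 95 at EIF4EBP2, 80 at TSC2, 68 at LARP1, 61 at EIF4EBP1 and 26 at RPS6KB1.

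The stretches before the RefSeq starts of 7 members are shown to set the promoters of the upstream regulators and TFEB beside those of RPS6KB1, with the lowest score, and of RPS6KB2 and ULK1, without a promoter peak. They are from RefSeq on GRCh38.p14, run 5′ to 3′ along the gene and end at the base before the start. Capitals mark every match to a motif that was searched on both strands and is spelled out below, and the RPS6KB1 stretch holds no match. The TSC1 stretch is chr9:132944617-132944866 on the minus strand, that of TSC2 chr16:2047835-2047984 on the plus strand and that of RHEB chr7:151519896-151520145 on the minus strand. The TFEB stretch is chr6:41735609-41735858 on the minus strand, before the outermost of its 3 RefSeq starts in the promoter table. The centre of the highest-scoring TFEB peak lay 953 bp from that start. It lay 254 bp from the innermost start, to which the peak was assigned. RPS6KB1 is shown at chr17:59892944-59893120, RPS6KB2 at chr11:67428244-67428493 and ULK1 at chr12:131894372-131894621, each on the plus strand. The TSC2 and RPS6KB1 stretches are shorter because the divergent genes NTHL1 and TUBD1 start inside the window.
TSC1: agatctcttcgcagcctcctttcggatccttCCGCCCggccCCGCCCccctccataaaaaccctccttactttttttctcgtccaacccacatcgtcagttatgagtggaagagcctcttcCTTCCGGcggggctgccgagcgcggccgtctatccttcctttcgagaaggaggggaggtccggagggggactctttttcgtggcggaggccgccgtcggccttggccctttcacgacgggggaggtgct
TSC2: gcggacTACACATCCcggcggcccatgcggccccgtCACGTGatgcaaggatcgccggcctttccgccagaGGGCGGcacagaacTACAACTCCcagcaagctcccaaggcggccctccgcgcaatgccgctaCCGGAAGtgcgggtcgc
RHEB: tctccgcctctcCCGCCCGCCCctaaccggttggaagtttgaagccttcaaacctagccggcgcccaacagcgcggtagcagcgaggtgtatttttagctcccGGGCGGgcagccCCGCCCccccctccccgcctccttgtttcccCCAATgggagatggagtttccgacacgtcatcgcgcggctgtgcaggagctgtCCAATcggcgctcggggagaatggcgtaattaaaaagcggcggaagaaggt
TFEB: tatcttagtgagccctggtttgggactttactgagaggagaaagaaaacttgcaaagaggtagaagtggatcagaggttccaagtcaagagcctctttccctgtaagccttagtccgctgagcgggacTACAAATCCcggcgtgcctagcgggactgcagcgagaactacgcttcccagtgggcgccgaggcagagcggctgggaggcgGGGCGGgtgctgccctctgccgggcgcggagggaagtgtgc
RPS6KB1: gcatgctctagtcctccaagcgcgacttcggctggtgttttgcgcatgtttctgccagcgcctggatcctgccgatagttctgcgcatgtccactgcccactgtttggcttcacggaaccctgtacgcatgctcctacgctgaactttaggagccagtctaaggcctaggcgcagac
RPS6KB2: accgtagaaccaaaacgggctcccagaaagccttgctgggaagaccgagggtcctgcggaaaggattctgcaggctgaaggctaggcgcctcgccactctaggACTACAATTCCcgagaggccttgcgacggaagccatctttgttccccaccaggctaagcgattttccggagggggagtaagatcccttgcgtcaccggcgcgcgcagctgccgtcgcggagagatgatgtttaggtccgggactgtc
ULK1: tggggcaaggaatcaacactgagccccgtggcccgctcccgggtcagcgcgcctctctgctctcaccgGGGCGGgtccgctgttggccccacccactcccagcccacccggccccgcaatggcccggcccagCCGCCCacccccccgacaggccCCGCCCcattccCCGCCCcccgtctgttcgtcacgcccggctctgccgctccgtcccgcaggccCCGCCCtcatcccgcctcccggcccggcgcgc

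The motif that RONIN shares with ZNF143 was matched at RPS6KB2, a promoter without a PML peak. Its core ACTACAATT occurred in 1 of the members' 15 promoter windows (250 bases before to 50 after each start, 9 genes matched by symbol), and in 0.379% of the 22183 windows of all protein-coding genes. A looser form, TACANNTCC, was written after these sequences had been read and overlaps the first at RPS6KB2. It was found in 3 of the members' 15 windows, at TSC2, RPS6KB2 and TFEB, and in 4.21% of all windows. At TSC2 and TFEB only the window at the start shown above held it. The form was written after the sequences were read, so the member count cannot be weighed against that share. The GC box GGGCGG was present at 7 of the 9 genes, all but RPS6KB1 and RPS6KB2. By window it was in 12 of the members' 15 and in 56.3% of all. The ETS motif CCGGAAG was present at TSC1, TSC2 and EIF4EBP2, in 4 of the 15 windows, and in 12.8% of all windows.

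The other motifs were found at 1 or 2 members each, in 1 window per member, or at none. CCAAT, bound by NF-Y, occurred at RHEB and LARP1 (34.7% of all windows), and the E-box CACGTG, the core of the sites that TFEB itself binds, occurred at TSC2 only among the members (8.34%). AAGATGGCG, the YY1 motif, occurred at TSC1 past the start (2.41%), and TGANTCA, the AP-1 motif, at LARP1 (6.15%). The CRE motif TGACGTCA and the NRF1 motif GCGCATGCG were found in none of the members' windows and in 2.26% and 2.36% of all. A gene with several windows, such as LARP1 with 4, had more chances to match, and a match is not a binding site. The members' windows held 8 to 50 CpG dinucleotides, against a median of 21 over all windows. That median was 26 for genes of the table with a promoter peak and 9 for those without. RPS6KB2 with 30 and ULK1 with 36 lay above both.

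Both TSC genes had their peak almost centred on an annotated start. The TSC1 gene, which encodes hamartin, lies on chromosome 9 from 132891349 to 132945378 on the minus strand. Its promoter peak ran from 132944184 to 132945036, was 853 bp wide and had its centre 6 bp from the TSS. Its score of 115 placed TSC1 at rank 2356 of the 10958 genes with a promoter peak, and 21.8% of them scored as high or higher. The RefSeq 5′ end of TSC1 lies 0.762 kb upstream of that TSS and outside this peak, and the divergent gene GFI1B starts 153 bp beyond it. TSC1 had a further peak of score 21 in intron 8 of 22, and a peak of score 24 over its last exon, 23 of 23, that the table names for SPACA9.

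TSC2, which encodes tuberin, the subunit with GTPase-activating function, lies on chromosome 16 from 2047985 to 2089491. Its promoter peak, from 2047519 to 2048412 with a score of 80, was centred 20 bp before the TSS and covered both TSC2 starts of the RefSeq promoter table. It also covered the start of NTHL1, a DNA glycosylase gene on the other strand whose start lies 151 bp away, so it cannot be told which of the 2 genes it marks. The table gives the peak to TSC2 only, and NTHL1 is named for 1 peak elsewhere and for no promoter peak. In rank TSC2 stood at 4226, with 38.8% of genes as high or higher, the lowest of the 3 upstream regulators.

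RHEB had the highest promoter score of the 10 genes and the widest promoter peak but that of TFEB. The gene lies on chromosome 7 from 151466012 to 151519895 on the minus strand. The peak from 151519042 to 151520999 had a score of 147 (rank 1427, 13.6% of genes as high or higher) and was 1958 bp wide, a width that 5.72% of genes reached with their highest promoter peak. Over all genes that width had a median of 798 bp. RHEB also had a peak of score 25 in intron 1 of 7 and an intergenic one of score 34 that lay 33800 bp upstream.

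**Figure D1:**
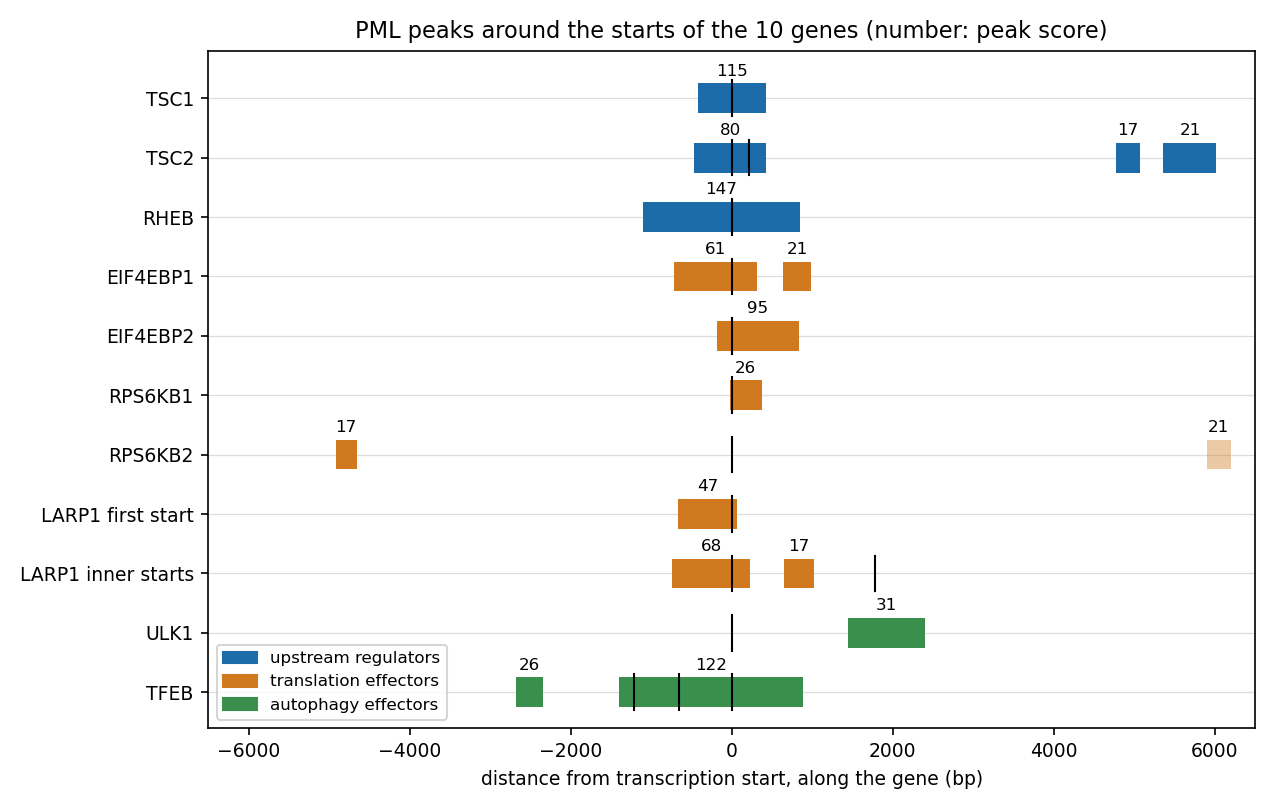
Peaks around the transcription starts, drawn as bars from peak start to peak end along the gene, with the peak score above each; black ticks are RefSeq starts, 0 is the start that the highest promoter peak was assigned to (the gene's 5′ end for RPS6KB2, ULK1 and the first LARP1 start), and the paler bar is named for another gene. The 3 upstream regulators each have 1 peak across the start, RPS6KB2 and ULK1 have none there, and the TFEB peak spans 3 starts.

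The 4E-BP genes had promoter peaks on either side of the median of all genes, which was 63. EIF4EBP2 lies on chromosome 10 from 70404145 to 70428618, and its only peak, from 70403966 to 70404982 over exon 1 of 3, had a score of 95 (rank 3303, 30.5% of genes as high or higher). EIF4EBP1, on chromosome 8 from 38030534 to 38060365, had a peak from 38029819 to 38030853 with a score of 61 (rank 5523) and a smaller one of score 21 in intron 1 of 2. The smaller peak was centred 812 bp from the TSS, near the edge of the promoter window. Neither gene had a peak further inside, so all 3 peaks of these repressors of EIF4E were promoter peaks.

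One S6 kinase gene had the lowest promoter score and the other had no promoter peak. RPS6KB1, which encodes an S6 kinase, lies on chromosome 17 from 59893121 to 59950574 and had 1 peak in its whole length. That peak, from 59893100 to 59893496, had a score of 26 and a width of 397 bp. The score was reached or passed by 93.1% of the genes with a promoter peak, and it lay below the median of 34 over all peaks. The divergent gene TUBD1 starts 178 bp upstream, outside the peak. RPS6KB2, the second S6 kinase, lies on chromosome 11 from 67428494 to 67435401 and had no peak within 1000 bp of its start. The one peak named for it lay 4789 bp upstream with a score of 17, in exon 10 of 10 of another transcript, and a peak of score 21 inside RPS6KB2 was named for PTPRCAP.

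LARP1, on chromosome 5 from 154682979 to 154817605, had peaks in 2 separate promoter regions. The first start had a peak of score 47 from 154682314 to 154683044. An inner start 72.4 kb further on had a peak of score 68 from 154754635 to 154755607, which gave LARP1 its rank of 4896. This peak also covered the start of LOC112267936 on the other strand, so here too it cannot be told which gene it marks. One more LARP1 peak, of score 17, was centred 837 bp past the same start. Its centre also lay 940 bp before a further LARP1 start, and the peak is annotated as promoter. Of the 4 LARP1 starts in the RefSeq promoter table, 2 lay inside a peak. With 3 promoter peaks LARP1 had more than any other member, and their summed score was 132.

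The 2 autophagy effectors differed from each other. TFEB, the transcription factor of lysosomal and autophagy genes, lies on chromosome 6 from 41683978 to 41736223 on the minus strand. One peak from 41733513 to 41735798, 2286 bp wide with a score of 122 (rank 2109), spanned all 3 starts of the RefSeq promoter table. It did not reach the gene's 5′ end at 41736223. Only 3.23% of genes had so wide a highest promoter peak. A second promoter peak of score 26 lay 688 bp upstream of the gene's 5′ end. Within intron 1 of 8 lay 4 more peaks, with scores of 31, 31, 61 and 42 along the chromosome, all named for the microRNA gene MIR10398.

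ULK1, the kinase that starts autophagy, lies on chromosome 12 from 131894622 to 131923150 and had no promoter peak. Its nearest peak was centred 1924 bp past the start, in intron 3 of 27, with a score of 31 and a width of 962 bp. It was the named peak closest outside the promoter window, while the farthest inside was the LARP1 peak at 837 bp. A further 3 peaks inside ULK1 were named for PUS1, with scores of 48 in intron 13, 17 in exon 25 and 26 in exon 27. The highest score in ULK1 was thus away from its start.

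Set side by side, the upstream regulators scored higher at the promoter than the pooled effectors, but the groups overlapped. The regulators had scores of 80, 115 and 147, with a median of 115. The 5 effectors with a promoter peak had scores of 26, 61, 68, 95 and 122, with a median of 68, near the median of 63 over all genes. EIF4EBP2 and TFEB lay above TSC2, and TFEB also above TSC1. Leaving out RHEB lowered the difference of medians from 47 to 29.5, and against TFEB, the only autophagy effector with a promoter peak, the difference was -7. Of the 5000 highest-scoring peaks, whose lowest score was 96, promoter peaks were held by 3 members, TSC1, RHEB and TFEB, beside 23.4% of all genes of the table. EIF4EBP2 missed that limit by 1. The genes are not replicates of a condition, and scores repeat across the list: 466 genes shared the 26 of RPS6KB1 and 35 the 115 of TSC1.

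**Figure D2:**
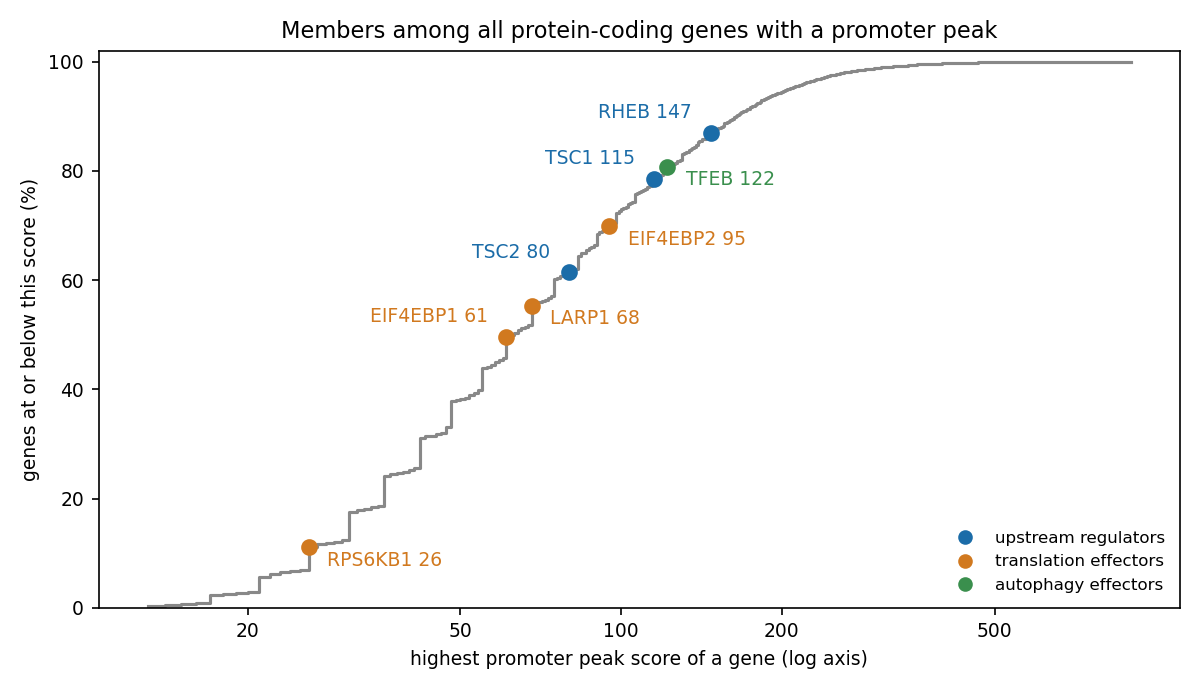
Cumulative share (in percent) of the 10958 protein-coding genes with a promoter peak by their highest promoter score on a log axis, with the 8 members that have one as coloured points. RPS6KB1 lies at the low end, EIF4EBP1 and LARP1 near the middle, and TSC1, TFEB and RHEB in the upper part between 115 and 147.

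Peaks named for a member scored lower away from its promoters. The 12 promoter peaks had scores of 17 to 147 with a median of 64.5, and the other 8 named peaks scores of 17 to 34 with a median of 21. Of the 25 peaks centred inside the 10 RefSeq genes, 12 were named for another gene, with scores of 17 to 61. The highest of these, 61 and 42 in TFEB, 48 in ULK1 and 36 in TSC2, lay above the median of 34 over all peaks. TSC2 and TFEB held most, with 5 each, a number that 10.8% of RefSeq protein-coding genes reached. One of the TSC2 peaks, in intron 4 of 40, lay on a MIR element, and one of the RHEB peaks, in intron 7 of 7 and named for CRYGN, on an L2 element.

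The regions around the members differed widely in how many peaks they held. Peaks over 10000 bp from any TSS were counted within 1 Mb on either side of each 5′ end, where RefSeq protein-coding genes had a median of 19 (quartiles 5 and 48, 15843 genes). TSC1 had 184, EIF4EBP2 167 and RHEB 86, while RPS6KB1 and LARP1 had 1 each, EIF4EBP1 3 and TFEB 11. Only 2.17% of genes had as many as TSC1. TSC2 had 33, RPS6KB2 48 and ULK1 49, and the 2 members without a promoter peak thus lay in regions with more distal peaks than the median. The counts and the promoter scores did not follow 1 order: LARP1, with 1 distal peak like RPS6KB1, had a score of 68 against 26, and TFEB had 122 with 11. The part of the region in the promoter scores was not tested.

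**Figure D3:**
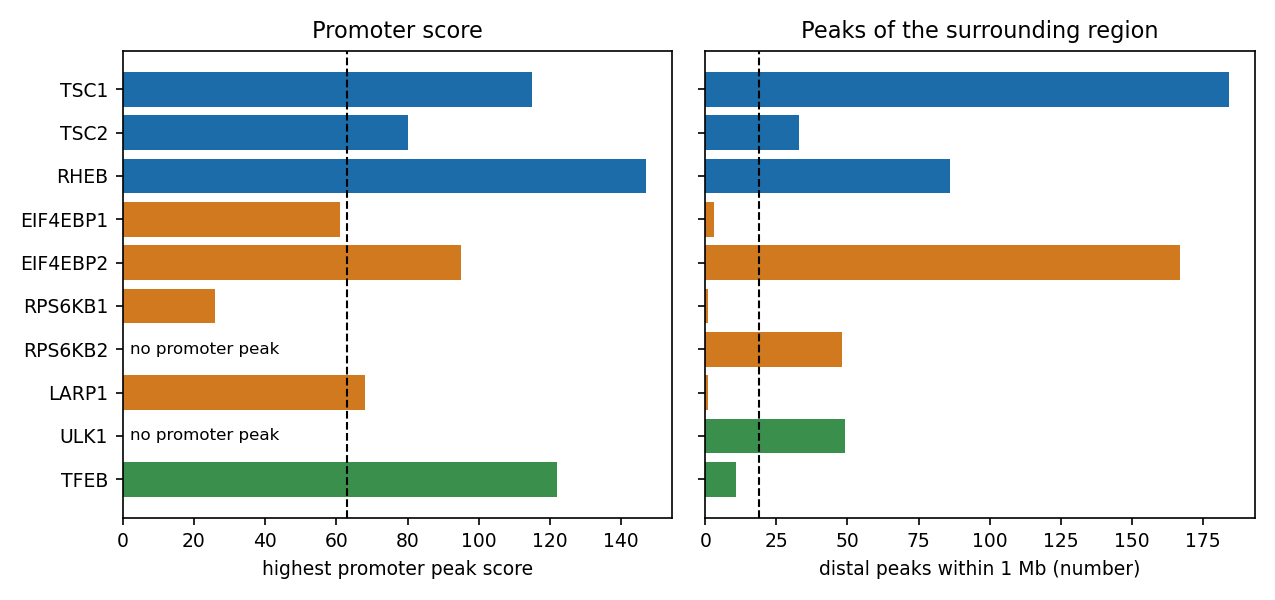
Highest promoter peak score (left) and number of peaks over 10000 bp from a TSS within 1 Mb of the 5′ end (right) for each member, with bars coloured blue for upstream regulators, orange for translation effectors and green for autophagy effectors, and dashed lines at the medians of all genes, 63 and 19. TSC1, EIF4EBP2 and RHEB are high in both, and TFEB pairs a score of 122 with 11 distal peaks.

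A further 99 genes were listed by role in the pathway or as paralogs of the members. The table names 85 of them, and 79 of these had a promoter peak (92.9%, beside 78.6% of all genes that it names). The signalling inputs of the TSC complex all had one, 23 of 23 with a median score of 55, beside 78.6% of all genes of the table and a median of 63. The highest were GSK3B with 323 and PRKAA1 with 230, kinases that phosphorylate TSC2, and DDIT4 with 217, a stress-induced activator of the complex. The third subunit of the complex, TBC1D7, was the nearest gene of no peak, and the RHEB paralog RHEBL1 had a score of 31. Among subunits and assembly factors of the mTOR complexes 9 of 12 had a promoter peak (median 42), led by RICTOR with 450, DEPTOR with 174 and RPTOR with 130. MTOR, PRR5L and TELO2 had none.

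Downstream, the list of translation targets also held regulators of RNA polymerases I and III. All 13 of its genes that the table names, of 14 listed, had a promoter peak, beside 78.6% of all genes that the table names. Their median score was 55, below the 63 over all genes. MAF1, the repressor of RNA polymerase III, had 750, PDCD4, an inhibitor of the helicase EIF4A1, had 100, and RRN3, an RNA polymerase I initiation factor, had 98. At its RefSeq 5′ end RRN3 had 31, while MAF1 and PDCD4 kept their scores there. EIF4EBP3 was named for no peak. EIF4E, the target of the 4E-BP proteins, had 55, and RPS6, the substrate of the S6 kinases, had 31. Of the 13 autophagy initiation and MiT/TFE genes that the table names, of 14 listed, 12 had one (median 95), with WIPI2 at 196, UVRAG at 169 and RB1CC1 at 139, while PIK3C3 and TFEC had none. Among amino acid sensing genes the table names 19 of 29, and 17 of the 19 had a promoter peak (89.5%, median 55, beside 78.6% of all genes that the table names). SESN1 had 358, MIOS 235 and RRAGC 208.

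Paralogs of the members often had other scores. ULK2 had a promoter score of 130 and ULK3 48, while ULK1 had no promoter peak. TFE3 had 112 and MITF 99, near the 122 of TFEB, whereas TFEC had none. RHEBL1 had 31 against 147 at RHEB. LARP1B and LARP4 had 48 each, below the 68 of LARP1. At the RefSeq 5′ end TFEB had 26 and LARP1 47, while TFE3, MITF, LARP1B and LARP4 kept their scores. In all, 9 of the 10 paralogs that the table names had a promoter peak, with a median score of 48. Over all genes that it names the share was 78.6% and the median 63. Another 2 paralogs were the nearest gene of no peak.

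**Figure D4:**
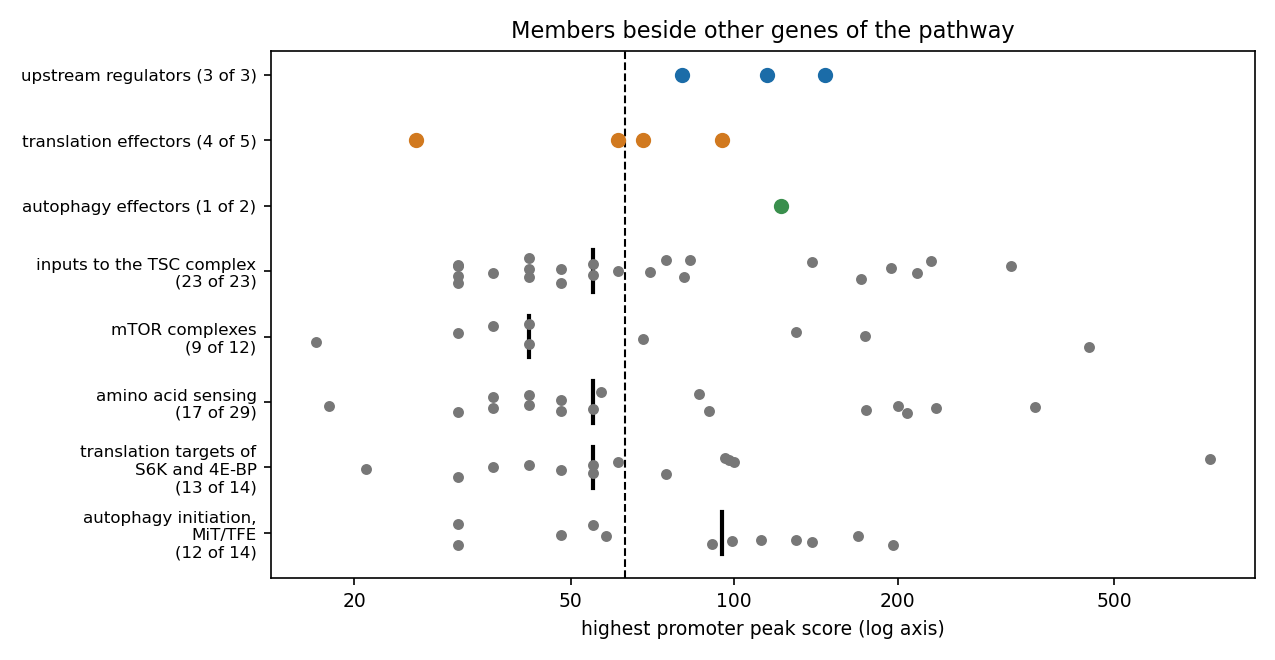
Highest promoter peak score (log axis) of each gene with a promoter peak, with members in colour, other pathway genes in grey, list medians as black bars and the median of all genes, 63, as a dashed line. The number with a promoter peak out of those listed stands beside each name; the 3 upstream regulators lie between 80 and 147, and the inputs of the TSC complex spread from 31 to 323.

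By RefSeq position the members' promoter count was the same. A peak of any name was centred within 1000 bp of the RefSeq 5′ end of 8 members, the same 8 genes as by name. The share was 59.5% of the 15843 RefSeq protein-coding genes with a promoter window, but the 2 are not counted alike. EIF4EBP1 has no such window, and its strand was read from its own peak. The share also includes genes that the table names for no peak, whereas it names all 10 members. The score moved at TFEB, where the 5′ end of the RefSeq gene has the peak of score 26, and at LARP1, whose first start has 47. Of the members' 15 starts in the RefSeq promoter table, 11 lay inside a peak. Those outside were the starts of RPS6KB2 and ULK1 and a pair at LARP1. The RefSeq 5′ ends of TSC1 and TFEB are not among these starts and also lay outside a peak.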

How the data were processed

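PML ChIP and input DNA of MDA-MB-231 cells was sequenced in 2 libraries each. Per the submitters' processing notes the build was hg38 and the tools were HOMER 4.11.1, MACS2 2.1.1.20160309, Trimmomatic 0.36, Picard 2.0.1 and BWA 0.7.12, listed without settings. Per the labels, the authors merged the data of the duplicates. The deposited table gives each peak a whole-number score by the authors, on a scale that no source used here states, with its position and distance to the nearest TSS in bp, per the file headers. The input level and the depth per sample are unknown from it.

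Peaks were taken by gene name, and a promoter peak was one centred within 1000 bp of a TSS. Ranks and shares used the protein-coding genes that the table names, so a gene with no nearest peak is not counted. RefSeq (GRCh38.p14) gave gene ends, and its promoter windows gave starts and sequences for 15843 of 20037 protein-coding genes, including 9 members. Distal counts and shares by RefSeq position used these genes, and for EIF4EBP1 the strand came from the peak table. Members and lists were chosen with earlier results of these data known. Named genes are the members, the genes named for peaks in or at them, and the 3 highest-scoring genes of each of 7 lists with those lacking a promoter peak where at most 5 do; EIF4E, RPS6 and the paralogs were added after their values were seen. Alternatives covered the window (500 and 5000 bp), the peaks kept, the gene assignment and the way scores were pooled. The promoter rule was tested on simulated data. Python 3.11.15, numpy 2.4.6, pandas 2.3.3 and scipy 1.17.1 were used.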

Additional observations from a re-analysis of the deposited data

How the results depend on the processing

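The difference of medians, upstream regulators minus effectors, was 47 and kept its direction with a 500 or 5000 bp window, the upper part of the peaks by score, RefSeq 5′ ends, absent promoter peaks set to 0 and translation effectors alone (33.5 to 68). It was 9 with the 5000 highest-scoring peaks, where 1 effector was left, 20 with summed promoter scores, where EIF4EBP1, LARP1 and TFEB have more than 1 peak, and -7 against the autophagy effectors alone. Leaving out 1 gene at a time, chosen after seeing the data, gave 29.5 to 63. With the 5000 highest-scoring peaks the count of members with a promoter peak fell from 8 to 3 and that of effectors from 5 to 1, and with the 5000 bp window it was 10 of 10, since RPS6KB2 and ULK1 entered. The upstream count was 3, or 2 with the 5000 highest. The share of all genes, 78.6%, was 70.6% with 500 bp, 87.0% with 5000 bp, 64.3% with peaks at or above the median score, 23.4% with the 5000 highest and 59.5% by RefSeq 5′ end. No paired analysis was possible because the table holds merged duplicates, and for the same reason no library could be left out. Depth behind the scores is unknown, so a missing peak does not show that PML is absent.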

Other observations

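Promoter peaks of some amino acid sensing genes depended on how peaks were tied to genes, and those named here were picked out after their values were seen. ITFG2, a subunit of the KICSTOR complex, had no promoter peak by name, yet a peak of score 237, of whatever name, was centred within 1000 bp of its RefSeq 5′ end. LAMTOR2, a subunit of the lysosomal Ragulator, was the nearest gene of no peak and had one of score 166 there. NPRL2, KICS2 and LAMTOR5 had peaks of 26, 21 and 17 by position and none by name, while KPTN, also of KICSTOR, had 48 by name and none by position. In all 21 of the 29 listed genes had a peak by position, beside 59.5% of RefSeq protein-coding genes. By name 17 of the 19 listed genes that the table names had one (89.5%), beside 78.6% of all genes that it names. The count by position uses peaks of any name and also another start than the table's TSS, and the part of each in the change was not tested. The 8 members of the TSC-RHEB axis and its effectors with a promoter peak were the same by name and by position.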
